A study of Mus musculus with 4 samples.

Results

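The genes described here are 9 regulators of the mitochondrial pathway of apoptosis, given by symbol among the 32285 genes counted in each library: Bcl2, Bcl2l1, Mcl1, Bax, Bak1, Bcl2l11, Bbc3, Pmaip1 and Xiap. Their RNA molecules, told apart by unique molecular identifiers (UMIs), were counted in ovaries of 8-week-old female mice by single-cell RNA sequencing, with 2 libraries of Fosl2F/F mice and 2 of Cyp19a1-Cre; Fosl2F/F mice (Fosl2cKO). Both groups came from the same litter and carried floxed Fosl2 alleles, with LoxP sites around exons 2 to 4, and differed by a Cre recombinase under the promoter of Cyp19a1, the aromatase gene, which is active in granulosa cells (GCs). Vaginal smears of the mice used were in estrus. The question put here was how the regulators are distributed over GC states, atretic-like cells included, and over the other cells of the ovary, and whether they differed between the conditions.

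Most follicles never ovulate but degenerate by atresia, in which GCs die by apoptosis. In this pathway Bcl2, Bcl2l1 (Bcl-xL) and Mcl1 hold the outer mitochondrial membrane closed, whereas Bax and Bak1 form pores in it that release cytochrome c. The BH3-only proteins Bcl2l11 (Bim), Bbc3 (Puma) and Pmaip1 (Noxa) bind the protective members and so free the effectors, and Xiap binds and blocks the caspases that cytochrome c activates. Much of this pathway is regulated on the protein level, by binding, cleavage and degradation, which RNA counts do not measure.

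The genes lie apart in the genome (GENCODE M21 on GRCm38). Bcl2 (ENSMUSG00000057329) spans chr1:106538178-106714274 on the minus strand, Bcl2l1 (ENSMUSG00000007659) chr2:152780668-152831728 on the minus strand and Mcl1 (ENSMUSG00000038612) chr3:95658788-95663176 on the plus strand. Bax (ENSMUSG00000003873) spans chr7:45461697-45466898 on the minus strand and Bak1 (ENSMUSG00000057789) chr17:27019810-27029009 on the minus strand. Bcl2l11 (ENSMUSG00000027381) spans chr2:128126038-128162547, Bbc3 (ENSMUSG00000002083) chr7:16308393-16318205 and Xiap (ENSMUSG00000025860) chrX:42059679-42109656, all on the plus strand. The identifier of Pmaip1 is ENSMUSG00000024521.

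Promoter windows, from 250 bases before to 50 bases after a transcription start, were read from RefSeq on GRCm38.p6 for all of these genes but Pmaip1, 8 genes with 15 windows in all. Below are 1 window of Bcl2, the gene that varied most between GC states, and 1 of Bbc3, the gene whose libraries separated by condition in the most classes. Capitals mark GC boxes, the letters GGGCGG or, on the other strand, CCGCCC. The Bcl2 window is chr1:106714241-106714540 on the minus strand and the Bbc3 window chr7:16309333-16309632 on the plus strand, each written 5′ to 3′.
Bcl2: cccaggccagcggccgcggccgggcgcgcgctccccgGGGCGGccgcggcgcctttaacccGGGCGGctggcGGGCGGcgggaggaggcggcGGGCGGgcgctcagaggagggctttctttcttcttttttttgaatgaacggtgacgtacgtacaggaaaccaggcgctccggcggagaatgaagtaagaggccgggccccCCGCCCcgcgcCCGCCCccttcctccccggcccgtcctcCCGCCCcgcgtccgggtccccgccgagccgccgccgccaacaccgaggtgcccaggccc
Bbc3: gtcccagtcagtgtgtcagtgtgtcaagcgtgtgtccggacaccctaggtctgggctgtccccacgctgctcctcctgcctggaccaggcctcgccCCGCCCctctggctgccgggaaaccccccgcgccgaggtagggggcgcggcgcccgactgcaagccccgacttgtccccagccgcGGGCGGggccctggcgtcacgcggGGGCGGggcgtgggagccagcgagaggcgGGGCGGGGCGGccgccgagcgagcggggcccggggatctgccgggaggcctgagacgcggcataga
Both windows had a GC content of 76.0%, and the Bcl2 window held 7 GC boxes and the Bbc3 window 5. GC boxes occurred in 10 of the 15 windows, each window of Bax, Bbc3, Bcl2, Bcl2l11 and Mcl1 and 2 of the 3 of Xiap, and in 35.7% of all 32851 promoter windows. The AP-1 site TGACTCA, which reads TGAGTCA on the other strand and is the motif that Fosl2 binds with its partners, occurred in 0 of the 15 windows against 5.20% of all, and the related site TGACGTCA in 0 against 1.79%. A match or its absence describes only these letters in these windows.

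After cell filters and removal of likely doublets, 8150 and 19575 cells of the Fosl2F/F libraries and 6760 and 7053 cells of the libraries labelled Fosl2cKO remained, with 104304591 to 111314200 UMIs per library. The second Fosl2F/F library stood apart, with a median of 3656 UMIs per cell against 11177 to 12465 in the others, and results that rest on it are given without it. Pairs of libraries shared 15 to 81 barcodes, at most 0.763% of the smaller library. Fosl2 itself did not separate the groups in GC-like cells, at 161 and 167 counts per 1000000 (CPM) for Fosl2F/F and 167 and 115 CPM for Fosl2cKO (log2 fold change -0.25, SE 0.20, adjusted p = 1.0 by edgeR). The matrices give 1 count per gene, so the deleted exons cannot be read apart. Plb1, chosen as a check of the labels with earlier results of these data known, had 0.0980 and 0.0522 CPM against 477 and 247 CPM and so separated the libraries by label.

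The cells fell into 25 classes, 9 of them states of GC-like cells and 16 outside them, named from marker lists where the markers allowed. Left out were 2 further unnamed GC states with under 20 cells in at least 1 library. The left-out state led by Spp1, with 16 to 77 cells per library, scored best for the atretic markers named below, with 6 of the 6 counted as high. It stayed unnamed since its 10 leading genes held 0 of them, so its cells are not among the atretic-like cells. The states that could be named were atretic-like (338 to 837 cells per library), mural-like (122 to 1021), cumulus-like (362 to 2138), growing follicle-like (183 to 689), mitotic-like (478 to 1224) and glycolytic antral-like (109 to 440). The 9 genes and the other genes of apoptosis were left out of the features used for clustering, but the states were defined on other genes of the same cells. The 6 markers of atretic GCs (Itih5, Ghr, Pik3ip1, Cald1, Pid1 and Igfbp5) summed to 1696 to 3081 CPM in atretic-like cells and to 62.6 to 791 CPM in the other 5 named states. The cumulus markers summed to 2178 to 2431 CPM in cumulus-like cells and to at most 339 CPM elsewhere, but the growing follicle markers were also higher there (2345 to 2428 CPM) than in the growing follicle-like cells (1417 to 1804 CPM), so that the cumulus-like name covers cells with both programmes. Levels are UMIs per 1000000 summed UMIs of a class and library (CPM). Where 4 values are listed, the first 2 are Fosl2F/F replicates 1 and 2 and the last 2 Fosl2cKO replicates 1 and 2, as labelled. Levels are compared between classes and not between genes.

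Among the protective genes, Bcl2 had the widest range, and 1 GC state stood out for it. Cumulus-like cells held 201, 236, 193 and 262 CPM, and atretic-like cells 35.8, 29.6, 30.2 and 31.2 CPM. The ranges of the 2 states lay far apart in all 4 libraries, with means of 223 ± 32.0 CPM and 31.7 ± 2.81 CPM (SD, n = 4). Growing follicle-like (32.6 to 50.8 CPM), mural-like (24.6 to 44.7 CPM), mitotic-like (20.2 to 29.1 CPM) and glycolytic antral-like cells (15.3 to 20.9 CPM) lay low as well. Atretic-like cells overlapped with the first 2 of these states and lay just above the others. The mean level in the highest GC state was 12.7-fold that in the lowest.

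The level of Bcl2 over all GC-like cells is a sum over states of unequal level. The cumulus-like share of GC-like cells was 9.87%, 32.5%, 20.2% and 15.1% over the 4 libraries, and this share of cells held 44.8%, 72.6%, 54.98% and 57.6% of the Bcl2 UMIs. Over all GC-like cells Bcl2 was 41.0, 86.3, 55.1 and 59.5 CPM, lowest in the library with the smallest share of cumulus-like cells and highest in the one with the largest, while the remaining 2 libraries did not follow that order. Markers of other cells were low in cumulus-like cells but not all at their lowest there. The 9 NK or T cell markers summed to 2.14 to 3.14 CPM there against 3998 to 6142 CPM in NK or T-like cells, and the stromal markers to 57.1 to 98.5 CPM against 7307 to 9806 CPM in stromal-like cells. The 6 dendritic markers summed to 45.6 to 71.7 CPM in cumulus-like and to 14.4 to 25.8 CPM in atretic-like cells, against 816 to 900.3 CPM in dendritic-like cells. The 8 epithelial markers summed to 109 to 170.4 CPM in cumulus-like and to 51.0 to 85.2 CPM in atretic-like cells, against 6060 to 8427 CPM in epithelial-like cells. Both lists thus moved with the state in which Bcl2 stood out, and their part in it was not tested.

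**Figure D1:**
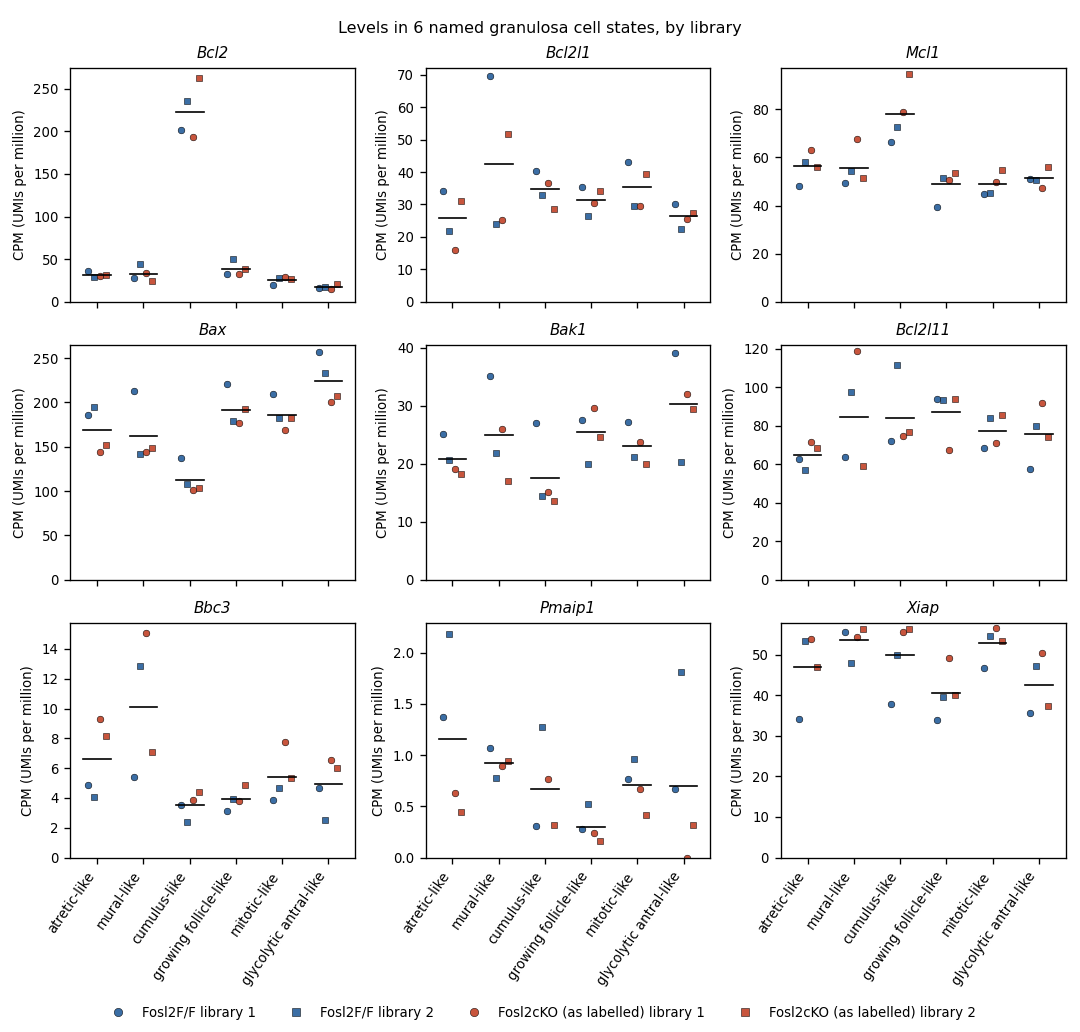
Level of each gene (CPM, vertical axes, 1 panel per gene) in 6 named GC states (horizontal axes), with 1 point per library coloured by condition. Bcl2 lies between 193 and 262 CPM in cumulus-like cells and at or below 50.8 CPM in the other 5 states, whereas most other genes overlap between states.

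Bcl2l1 and Mcl1 varied far less. Bcl2l1 was lowest in atretic-like cells among the named states, with 34.0, 21.8, 16.0 and 31.2 CPM, and highest in mural-like cells, with 69.5, 24.1, 25.1 and 51.6 CPM. The libraries of these states overlapped. Mcl1, a short-lived protein whose gene responds quickly to signals, was highest in cumulus-like cells (66.3 to 94.5 CPM) and lay between 39.5 and 67.7 CPM in the other 5 states. Atretic-like cells, at 48.1 to 63.2 CPM, were within that band.

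Over the named GC states the effectors had their extremes where Bcl2 had the opposite ones. Bax was lowest in cumulus-like cells, with 138, 108, 101 and 103 CPM, and highest in glycolytic antral-like cells, with 256, 234, 201 and 207 CPM. Atretic-like cells held 186, 195, 145 and 152 CPM and overlapped with mural-like (142 to 213 CPM), mitotic-like (168 to 209 CPM) and growing follicle-like cells (176 to 221 CPM). Bak1 was also lowest in cumulus-like cells (13.6 to 26.9 CPM) and highest, of the named states, in glycolytic antral-like cells (20.3 to 39.1 CPM), with atretic-like cells at 18.2 to 25.1 CPM. In each of the 6 named states the first Fosl2F/F library had a higher Bak1 level than the second.

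As a description of 2 genes of opposite role, the ratio of Bax to Bcl2 was followed across the states in each library. Its log2 in cumulus-like cells was -0.55, -1.12, -0.94 and -1.34, a mean of -0.99 ± 0.34 (SD, n = 4). Atretic-like cells had 2.38, 2.72, 2.26 and 2.29, a mean of 2.41 ± 0.21, and glycolytic antral-like cells reached 3.68 ± 0.27. Since counts of 2 genes are not on 1 scale, only the differences between states can be read, and the sign cannot. The atretic-like cells overlapped with mural-like (1.67 to 2.91), growing follicle-like (1.81 to 2.75) and mitotic-like cells (2.53 to 3.37), so the ratio set apart the cumulus-like cells and not the atretic-like ones.

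**Figure D2:**
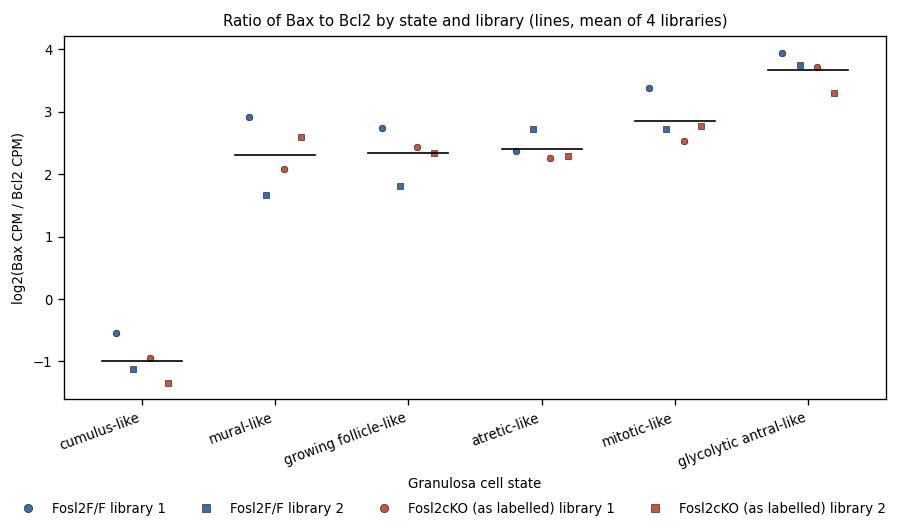
The log2 ratio of Bax to Bcl2 CPM (vertical axis) in the named GC states (horizontal axis), with 1 point per library and a line at the mean of the 4 libraries. Cumulus-like cells lie between -1.34 and -0.55, and the atretic-like cells, between 2.26 and 2.72, overlap with 3 other states.

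The BH3-only genes differed from one another. Over all 9 GC states Bcl2l11 was lowest in atretic-like cells, at 62.6, 57.0, 71.3 and 68.5 CPM, but the highest GC state was only 1.56-fold above it. Bbc3 was counted sparsely, with 163 to 391 UMIs in the GC-like cells of a library. Its highest named GC state was the mural-like one, with 5.40, 12.8, 15.1 and 7.101 CPM, followed by the atretic-like one, with 4.89, 4.05, 9.32 and 8.18 CPM. Pmaip1 was nearly silent in GCs, where 18 to 56 UMIs per library gave 0.372 to 1.02 CPM, and atretic-like cells had 4 to 16 UMIs (0.442 to 2.18 CPM). Xiap was even over the states, from 33.8 to 56.6 CPM over the 6 named states, with atretic-like cells at 34.0 to 53.7 CPM.

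Outside GCs the genes marked different cells. Bcl2 was highest in NK or T-like cells, at 607, 732, 606 and 686 CPM, and Bcl2l11 was highest there too, at 303, 402, 470.5 and 307 CPM. Mcl1 was highest in macrophage-like (195 to 285 CPM) and dendritic-like cells (157 to 274 CPM), and Bax in macrophage-like cells (259 to 545 CPM), where the first Fosl2F/F library stood well above the other three. Bak1 was highest in dendritic-like cells (27.4 to 79.5 CPM). Lymphatic endothelial-like cells held the most Xiap, 166 to 267 CPM, followed by endothelial-like cells with 109 to 115 CPM, and also the most Bcl2l1, 75.4 to 118 CPM.

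Pmaip1 had the sharpest distribution of the 9 genes. In dendritic-like cells it was 511, 580, 496 and 493 CPM. Macrophage-like cells followed with 65.8 to 98.7 CPM, B lymphocyte-like cells had 54.5 to 125 CPM from few cells, and epithelial-like cells had 22.1 to 32.1 CPM. Luteal-like cells, at 0 to 9 UMIs per library, and theca-like cells, at 2 to 4, were near the limit of detection, where a count of 0 allows up to 3. Bbc3 was highest in luteal-like cells, at 15.4, 11.03, 32.5 and 51.8 CPM.

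Over the 25 classes ordered by mean level, there are 24 steps between neighbours for each gene. The ranges over libraries did not overlap at 4 of these for Bcl2, at 2 for Pmaip1, at 1 for Xiap and at 0 for the other 6 genes. Most neighbours in these orders thus cannot be told apart by their ranges. Each library holds every class and the ranges do not pair the classes by library, so an overlap does not show that neighbours are equal. The mean of the highest class was 69.5-fold that of the lowest for Bcl2, 9.47-fold for Bcl2l11, 7.98-fold for Bbc3, 6.60-fold for Bak1, 6.24-fold for Mcl1, 5.84-fold for Xiap, 4.97-fold for Bax and 4.78-fold for Bcl2l1. No such fold is given for Pmaip1, whose lowest classes were at the limit of detection.

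**Figure D3:**
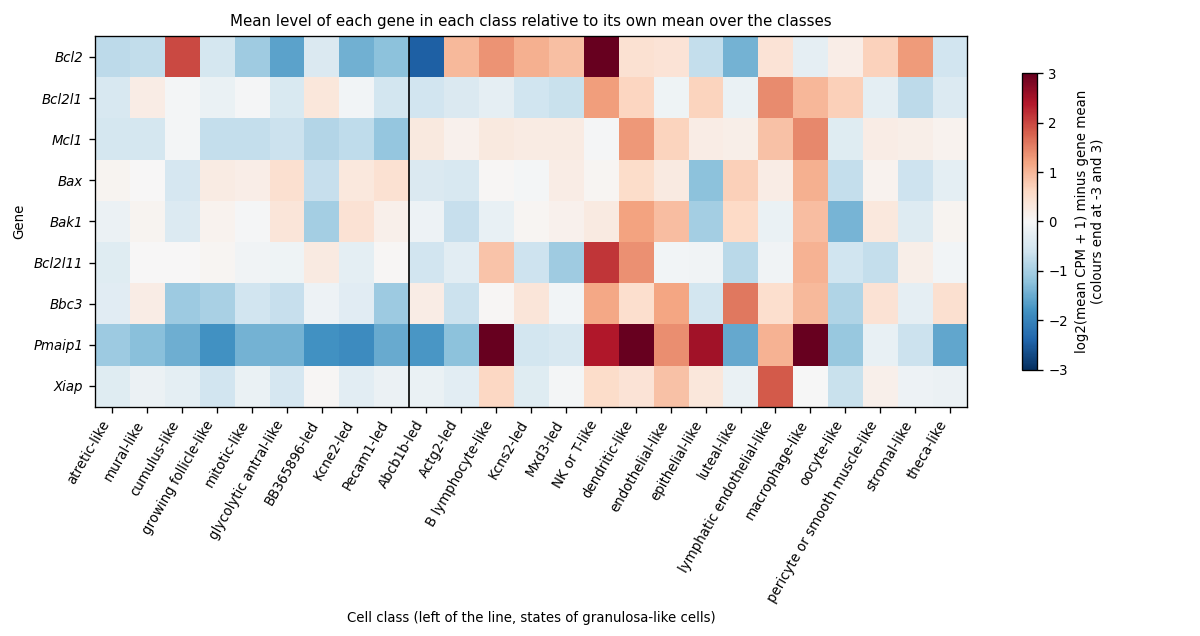
Mean level of each gene (rows) in each of the 25 classes (columns, GC states to the left of the line), as log2 relative to the mean of that gene over the classes. Bcl2 is high in NK or T-like and cumulus-like cells, Pmaip1 in dendritic-like cells and Xiap in lymphatic endothelial-like cells.

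The gene with the most similar profile over the classes was sought for each of the 9, by Pearson's r of mean log2 CPM over 25 classes among 12270 genes. The classes share 4 libraries, 9 of them are states of 1 cell type, and the best of many genes was taken, so these are descriptions without a test. Pmaip1 was nearest to Cd74, the invariant chain of MHC class II in antigen-presenting cells (r = 0.95), and Mcl1 to the transcription factor gene Trps1 (r = 0.90). Xiap was nearest to Mtmr12 (r = 0.90), Bak1 to Gnb2 (r = 0.88), Bcl2l11 to Dennd1c (r = 0.88) and Bbc3 to Tm6sf1 (r = 0.84). Lower values were reached for Bax with Gmpr2 (r = 0.82), Bcl2 with Uimc1 (r = 0.81) and Bcl2l1 with A430093F15Rik (r = 0.80).

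Atretic-like cells were then compared with each of the other 5 named GC states. Of 40 comparisons of a gene with a state, 15 passed the threshold of 0.1 for the adjusted p together with that of 0.25 for the size of the log2 fold change. The clearest contrast was with cumulus-like cells, with less Bcl2 and Mcl1 and more Bax and Bbc3 in atretic-like cells, and the smallest number of differences was with mural-like cells, where only Bcl2l1 passed. These tests used edgeR's quasi-likelihood test on summed UMIs with the library as a block, and their counts must be read against a background in which 37.5% to 54.5% of all 14056 genes passed. The 5 contrasts share the atretic-like sums and are not independent, and Pmaip1 had too few UMIs to enter them.

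Against cumulus-like cells, 6 of the 8 genes passed, where 48.6% of all genes did. Bcl2 was 6.55-fold lower in atretic-like cells (log2 fold change -2.71, SE 0.14, adjusted p = 8.57e-12), and Mcl1 was 1.32-fold lower (-0.41, SE 0.096, adjusted p = 0.00162). Bax was 1.58-fold higher (0.66, SE 0.079, adjusted p = 8.44e-07) and Bbc3 1.99-fold higher (0.99, SE 0.25, adjusted p = 0.00301). These 4 calls were kept with each library left out and under every other setting that gave a value. Clusters at a resolution of 0.8 gave none, since no cumulus-like cells were named there. In the main clusters the cumulus-like name rested on a marker score of 0.756, against 0.646 for growing follicle. Bcl2l1 (-0.41, SE 0.18, adjusted p = 0.0640) was lower and Bak1 (0.33, SE 0.13, adjusted p = 0.0422) higher, but Bcl2l1 was lost without the second Fosl2F/F library (-0.34) or the first labelled Fosl2cKO (-0.14), and Bak1 without the second Fosl2F/F library (0.29) or the second labelled Fosl2cKO (0.32). Bcl2l11 (-0.28, SE 0.18) and Xiap (-0.04, SE 0.10) did not pass. The median over the 8 genes was -0.16, and 0.01 over all genes tested.

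Mural-like cells are the GCs that line the antral follicle wall, and against them 37.5% of all genes passed but 1 of the 8. Bcl2l1 was 1.58-fold lower in atretic-like cells (-0.66, SE 0.18, adjusted p = 0.00811), a call that was lost without the first Fosl2F/F library (-0.46). Bcl2 (0.01, SE 0.15), Mcl1 (0.03, SE 0.10) and Bax (0.10, SE 0.079) had log2 differences near 0. Bcl2l11 (-0.33, SE 0.18), Bak1 (-0.25, SE 0.13) and Xiap (-0.20, SE 0.11) did not pass. Bbc3, at -0.52 (SE 0.24, adjusted p = 0.107), missed the threshold and passed it without the first Fosl2F/F library (-0.68) or without the second labelled Fosl2cKO (-0.70). The median was -0.23 over the 8 genes and -0.01 over all. Theca markers summed to 3092 to 4291 CPM in mural-like and to 583 to 1151 CPM in atretic-like cells, and luteal markers to 632 to 1259 and to 201 to 561 CPM, and their part in this contrast was not tested.

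Against glycolytic antral-like cells, where 54.5% of all genes passed, 3 of the 8 did. Bcl2 was 1.83-fold higher in atretic-like cells (0.87, SE 0.17, adjusted p = 0.000193), Bax 1.33-fold lower (-0.41, SE 0.079, adjusted p = 0.000163) and Bak1 1.46-fold lower (-0.55, SE 0.13, adjusted p = 0.00169). Thus the same 2 genes, Bcl2 and Bax, stood on opposite sides of the atretic-like level in cumulus-like and in glycolytic antral-like cells. All 3 calls were kept with each library left out and under the other settings tried. The other 5 genes did not pass, with log2 differences of -0.19 for Bcl2l11, -0.05 for Bcl2l1, 0.12 for Mcl1, 0.12 for Xiap and 0.40 for Bbc3. The medians were 0.03 over the 8 genes and 0.02 over all.

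Against growing follicle-like cells 3 of the 8 genes passed and against mitotic-like cells 2. Against growing follicle-like cells, where 43.4% of all genes passed, Bbc3 was 1.68-fold higher in atretic-like cells (0.75, SE 0.26, adjusted p = 0.0279), Bcl2l11 1.33-fold lower (-0.42, SE 0.18, adjusted p = 0.0717) and Bak1 1.23-fold lower (-0.30, SE 0.13, adjusted p = 0.0774). Against mitotic-like cells, where 52.6% passed, Bcl2 was 1.26-fold higher (0.33, SE 0.14, adjusted p = 0.0609) and Bcl2l1 1.38-fold lower (-0.47, SE 0.17, adjusted p = 0.0310). The fold of Bcl2 rested on the clustering, since with GC clusters at a resolution of 0.3 its log2 difference from mitotic-like cells was 0.95. The mitotic-like cells joined clusters of 1885 and 1033 cells, whereas at 0.3 the name covered 1906 cells. The growing follicle-like cells numbered 1520 in the main clusters and 2573 at 0.3. Against growing follicle-like cells the genes that did not pass had log2 differences of -0.30 for Bcl2l1, -0.23 for Bcl2, -0.18 for Bax, 0.20 for Xiap and 0.22 for Mcl1. Against mitotic-like cells these were -0.23 for Bcl2l11, -0.19 for Xiap, -0.15 for Bak1, -0.13 for Bax, 0.21 for Mcl1 and 0.32 for Bbc3. None of the 5 calls against these states was kept with every library left out. Bbc3 and Bak1 against growing follicle-like cells were lost without the first (0.59 and -0.18) or the second library labelled Fosl2cKO (0.72 and -0.27), and Bcl2l11 was lost without the first (-0.36) or second Fosl2F/F library (-0.34) or the second labelled Fosl2cKO (-0.43). Against mitotic-like cells, Bcl2 was lost without the first Fosl2F/F library (0.12) or the second labelled Fosl2cKO (0.34), and Bcl2l1 without the first labelled Fosl2cKO (-0.33). The medians of the 8 genes were -0.20 against growing follicle-like and -0.14 against mitotic-like cells, and 0.01 and 0.02 over all genes.

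**Figure D4:**
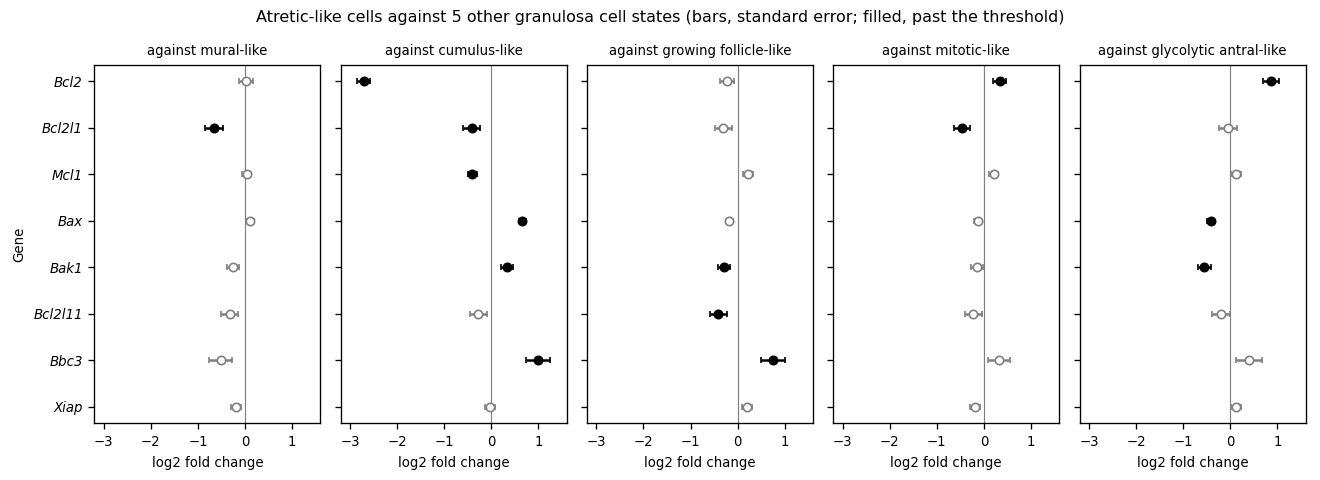
Log2 fold change of each of 8 genes in atretic-like cells against 5 other GC states (1 panel per state, horizontal axes), with bars of 1 standard error and filled points for the 15 comparisons that passed. Bcl2 against cumulus-like cells, at -2.71, lies far from all others.

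The other genes of the apoptosis list place the 9 genes in their pathway. The list held 52 further genes, of which 41 were tested between the states. In atretic-like cells 16 were higher and 8 lower than in cumulus-like, 8 higher and 13 lower than in mural-like, 7 higher and 11 lower than in growing follicle-like, 9 higher and 15 lower than in mitotic-like, and 8 higher and 21 lower than in glycolytic antral-like cells. The genes called were thus 24, 21, 18, 24 and 29 of the 41, where 48.6%, 37.5%, 43.4%, 52.6% and 54.5% of all genes were, so that against growing follicle-like cells the share was near that of all genes. The median log2 differences of the list were 0.09, -0.19, -0.13, -0.09 and -0.35 in that order. Pericyte or smooth muscle markers, at 111 to 164 summed CPM, were higher in atretic-like cells than in the other GC states (at most 79.3 CPM). Lymphatic endothelial markers, at 80.0, 58.2, 19.1 and 49.9 CPM, were also highest there in each library. The part of both in these differences was not tested.

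The BH3-only gene Bmf was among the 3 largest rises in all 5 contrasts. Atretic-like cells had 2.49, 4.36, 3.48 and 3.76 CPM and mural-like cells 0.532, 1.56, 2.87 and 1.89 CPM, so that every library was higher in atretic-like cells (log2 fold change 1.21, SE 0.28, adjusted p = 0.00223). Against mitotic-like cells (0.412 to 0.966 CPM) the difference was 2.40 (SE 0.26), and it was 1.48 against cumulus-like, 2.17 against growing follicle-like and 2.65 against glycolytic antral-like cells. All 5 calls of Bmf were kept under every setting that gave a value. Its counts were sparse, at 0.363 to 0.729 CPM in glycolytic antral-like cells, so the difference of 2.65 there rests on few UMIs.

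Foxo1, a transcription factor held in check by growth factor signalling, rose most against cumulus-like cells, with 1284, 1322, 648 and 1403 CPM in atretic-like and 277, 271, 283 and 367 CPM in cumulus-like cells (1.99, SE 0.18). Birc3, an inhibitor of apoptosis gene, was also higher there (1.39), and Tnfrsf21 (death receptor 6, -1.20), Bcl2l2 (-0.81) and the Bax-like effector gene Bok (-0.52) were lower. Fas, the death receptor gene, was higher than in growing follicle-like (1.35), mitotic-like (1.70) and glycolytic antral-like cells (1.88), but its level in atretic-like cells ranged from 1.44 to 12.1 CPM, and the first of these calls was lost without the first library labelled Fosl2cKO (1.06). The largest falls against these 3 states included Birc5 (-1.42, -3.97 and -1.96) and E2f1 (-1.86, -1.56 and -2.24), both genes of dividing cells, besides Bok (-1.22), Cycs (-1.32) and Bnip3 (-1.84), 1 in each contrast. Against mural-like cells the adaptor gene Cradd (-1.15), Bnip3 (-1.14) and Endog (-1.11) fell most, the last a call that was lost without the library block (-1.01), as were those of Endog in the other 4 contrasts.

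Of the 9 caspase genes on the list 8 could be tested between the states. In atretic-like cells 3 were higher and 1 lower than in mural-like cells, and 1 was higher and 3 to 4 lower than in each of the other 4 states, where 37.5% to 54.5% of all genes passed. Some of these calls were unstable. Casp9, the initiator of the mitochondrial pathway, passed downwards against mural-like cells but was lost in 12 of 14 other settings and was 0.0041 without the first Fosl2F/F library. Casp4, an inflammatory caspase, passed downwards against growing follicle-like cells and was lost in 11 of 13. Both were named after their values had been seen. Casp6, an executioner caspase, had 70.1, 72.8, 85.5 and 68.3 CPM in atretic-like and 40.2, 26.1, 41.7 and 34.6 CPM in mural-like cells (1.08, SE 0.15, adjusted p = 1.49e-05), but was lower than in cumulus-like cells (-0.41), a call lost without the first (-0.34) or the second library labelled Fosl2cKO (-0.31). Casp12 passed upwards against all states but the cumulus-like (1.14 to 1.44) at 1.37 to 3.11 CPM, and against glycolytic antral-like cells it was lost without the second Fosl2F/F library (1.06).

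Casp8, named here after its values had been seen, encodes the initiator of the death receptor pathway. In atretic-like cells it was lower than in cumulus-like (-0.38), growing follicle-like (-0.63), mitotic-like (-0.82) and glycolytic antral-like cells (-0.70), the first of these lost without either Fosl2F/F library (-0.27 in both cases).

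Between the conditions none of the 9 genes passed in any of the 25 classes. Bbc3 was the most uniform in direction over the classes, and Mcl1 had smaller differences, mostly above 0. Of 195 tests of a gene in a class 0 passed with edgeR, where 0.147% of all 262828 such tests did, and 12 had an unadjusted p under 0.05, where 5.69% of all did. DESeq2 passed 1, Bbc3 in luteal-like cells (log2 fold change 1.59, adjusted p = 0.0430), against 0.281% of all tests over the 25 classes together. Without the second Fosl2F/F library, where 1.13% of all tests passed, 3 did, of Bcl2 in lymphatic endothelial-like cells (-1.75) and of Bax (-1.11) and Bak1 (-0.99) in macrophage-like cells, and without the first, where 0.32% passed, 1 did, of Bbc3 in a class outside GCs led by Abcb1b (1.64). The lowest adjusted p was that of Pmaip1 in NK or T-like cells, with 12.0, 15.0, 37.9 and 27.7 CPM from 6 to 42 UMIs per library and without overlap (1.27, SE 0.43, adjusted p = 0.272). With 2 libraries per group an exact permutation test cannot give a two-sided p below 0.333, and the classes share the same 4 libraries, so a direction common to many classes is not independent evidence. In GC-like cells as a whole 0.0058% of all genes passed, in atretic-like cells 0.00761% and in mural-like cells 0.0337%.

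In atretic-like cells Bbc3 measured 4.89 and 4.05 CPM for Fosl2F/F against 9.32 and 8.18 CPM for Fosl2cKO, without overlap (0.84, SE 0.33, adjusted p = 0.870). Bax was 186 and 195 CPM against 145 and 152 CPM, also without overlap and in the other direction (-0.44, SE 0.18, adjusted p = 0.870). Pmaip1, with 16 UMIs or fewer per library, was 1.37 and 2.18 CPM against 0.632 and 0.442 CPM (-1.72, SE 0.65, adjusted p = 0.870). These 3 had an unadjusted p under 0.05, against 5.46% of all genes in this class. The other 6 genes had log2 differences of -0.39 (Bak1, SE 0.23), -0.35 (Bcl2l1, SE 0.39), -0.19 (Bcl2, SE 0.21), 0.09 (Mcl1, SE 0.18), 0.14 (Bcl2l11, SE 0.18) and 0.15 (Xiap, SE 0.23). Bak1 ran from -0.56 to -0.16 with 1 library left out.

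Mural-like cells gave log2 differences of -0.46 (Bak1, SE 0.33), -0.42 (Bcl2l1, SE 0.48), -0.34 (Bax, SE 0.26), -0.33 (Bcl2, SE 0.31), 0.03 (Xiap, SE 0.24), 0.12 (Bcl2l11, SE 0.35), 0.16 (Mcl1, SE 0.25) and 0.41 (Bbc3, SE 0.51) for the 8 genes tested, each with an adjusted p of 1.0. With 1 library left out, Bak1 ran from -0.83 to -0.028 there and Bax from -0.61 to -0.0036. Whether the effect of the condition differed between atretic-like and mural-like cells was tested directly, as an interaction, and 0 of the 8 genes passed, as did 0 of all 13356 genes (0%). Of the 8 genes 0 had an unadjusted p under 0.05, as had 479 of all genes, and DESeq2 passed 0 of these 8 and 11 of all genes. The differences of the effects ran from -0.13 (Bax, SE 0.25) to 0.34 (Bbc3, SE 0.59), with standard errors of 0.23 to 0.59 that leave sizeable differences undetectable.

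Over all classes, Bbc3 was higher on average in the libraries labelled Fosl2cKO in 19 of the 19 classes where it was tested, with log2 differences of 0.23 to 1.56 and a median of 0.70. Both of these libraries lay above both Fosl2F/F libraries in 19 of the 25 classes and below them in 0. Of 12208 genes over 1 CPM in at least 19 classes, 1.94% did so in as many classes or more. Under RLE scaling it was also above 0 in 19 of 19 classes, and with 1 library left out at a time it was so in all but at most 1 of the 18 to 20 classes tested. In GC-like cells Bbc3 was 4.42 and 4.26 CPM against 7.84 and 6.07 CPM (0.65, SE 0.25, adjusted p = 1.0).

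The largest differences of Bbc3 were in luteal-like cells, with 15.4 and 11.03 CPM for Fosl2F/F against 32.5 and 51.8 CPM (1.56, SE 0.37, adjusted p = 0.301), and in stromal-like cells, with 3.096 and 4.66 CPM against 9.82 and 10.4 CPM (1.36, SE 0.41, adjusted p = 0.463). In theca-like cells the values were 11.4 and 6.68 CPM against 15.8 and 15.5 CPM. The libraries thus lay apart outside GC-like cells as well. Luteal cells derive in part from GCs. In luteal-like cells Bcl2 was 4.85 and 12.8 CPM against 24.5 and 38.8 CPM (1.65, SE 0.50, adjusted p = 0.374), again without overlap. Without a filter on low counts both genes passed in luteal-like cells, Bcl2 at 1.64 (adjusted p = 0.00287) and Bbc3 at 1.56 (adjusted p = 0.00312), against 1.26% of all tests over the classes together. In the main edgeR fit of luteal-like cells, 1389 of all 12822 genes had an unadjusted p under 0.05, and 2 passed. This class joined 2 clusters, and the smaller one held 65.3% and 27.7% of its cells for Fosl2F/F against 4.52% and 10.7% for Fosl2cKO. The 7 luteal markers summed to 12853 and 12755 CPM against 7134 and 7397 CPM. Within the larger cluster Bbc3 was 18.1 and 9.95 CPM against 31.7 and 51.4 CPM and Bcl2 9.03 and 14.0 CPM against 24.6 and 39.0 CPM, the first values from 2 UMIs and 1 UMI. In the smaller cluster, with 15 to 344 cells per library, Bbc3 was 15.30 and 15.33 CPM against 46.7 and 55.2 CPM and Bcl2 4.71 and 8.28 CPM against 23.4 and 36.8 CPM. Neither gene overlapped between the conditions in either cluster, but the share of all genes without overlap was not taken for these clusters.

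Bax had a log2 difference below 0 in 24 of 25 classes, with both libraries labelled Fosl2cKO below both Fosl2F/F libraries in 9 and above them in 0. Over the classes 1 library decided the direction, since without the first Fosl2F/F library Bax was below 0 in 14 of 25 classes only, with a median of -0.01 in place of -0.29. In atretic-like cells, however, Bax stayed between -0.49 and -0.39 with any 1 library left out. Bak1 was below 0 in 20 of 21 classes, and without the first Fosl2F/F library it was above 0 in 15 of 22. Mcl1 was above 0 in 23 of 24 classes, with a median of 0.26 and no overlap in 14, and remained above 0 in at least 21 classes with any 1 library left out. Xiap was above 0 in 19 of 23 classes with no overlap in 11, and Bcl2 (11 of 25), Bcl2l1 (5 of 24), Bcl2l11 (17 of 24) and Pmaip1 (6 of 10) were above 0 in the classes given. These 4 directions changed with single libraries. Without the first Fosl2F/F library Bcl2l1 was above 0 in 17 of 24 classes, Bcl2l11 in 9 of 25 and Pmaip1 in 3 of 10. Without the first library labelled Fosl2cKO, Bcl2 was above 0 in 15 of 25, Bcl2l1 in 14 of 24 and Bcl2l11 in 10 of 25, and without the second Fosl2F/F library Bcl2 was so in 14 of 25. Of the 213 pairs of a member and a class above 1 CPM, both libraries labelled Fosl2cKO were above the others in 56 (26.3%) and below in 21 (9.86%), where over all genes above 1 CPM the shares were 18.7% and 14.5%. The share of all genes that reached as many classes as Bax, Mcl1 or Xiap was not taken. Since the classes share the same 4 libraries, the shares of pairs do not replace it.

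**Figure D5:**
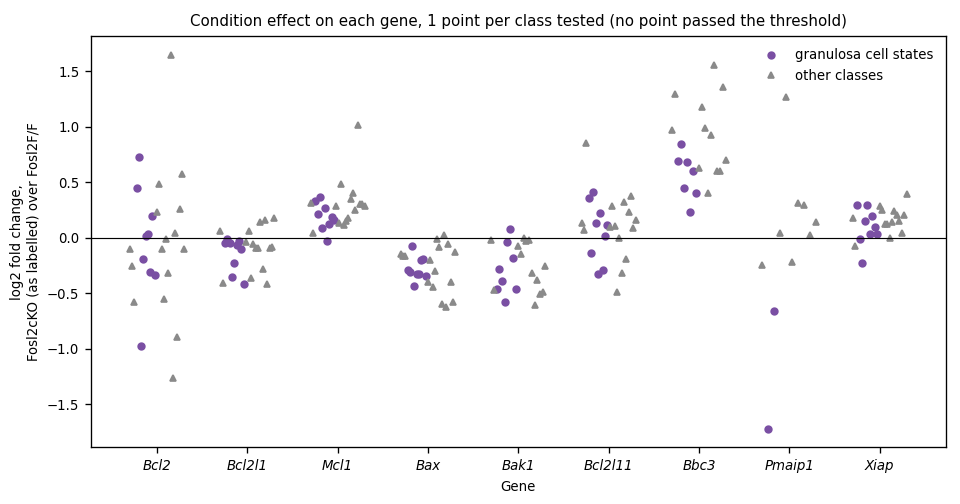
Log2 fold change between conditions (vertical axis, above 0 where higher in the libraries labelled Fosl2cKO) of each gene (horizontal axis), with 1 point per class tested. No point passed the threshold, all 19 points of Bbc3 lie above 0, and 24 of the 25 of Bax lie below it.

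Among the 52 other genes of the list, 1 of 890 tests of a gene in a class passed between conditions, where 0.147% of all such tests did, and 72 had an unadjusted p under 0.05, where 5.69% of all did. Endog, a mitochondrial endonuclease gene, was 4.22, 4.39, 10.1 and 24.3 CPM (1.94, SE 0.40, adjusted p = 0.0843), in the class led by Abcb1b, where 0.222% of all genes passed. This call was lost without the second library labelled Fosl2cKO (1.21), under 5% mitochondrial UMIs (2.32, adjusted p = 0.132) and with 2 times the doublet share removed (2.02, adjusted p = 0.120). The libraries labelled Fosl2cKO lay above both others in 24 of the 25 classes and in all 9 GC states, as many classes as were reached by 0.328% of the 12208 genes over 1 CPM in at least 19 classes, with 6.01 and 4.67 CPM against 17.2 and 37.4 CPM in mural-like cells (2.20, SE 0.42, adjusted p = 0.289) and 2.14 and 3.73 CPM against 7.58 and 15.6 CPM in atretic-like cells (2.01, SE 0.49, adjusted p = 0.870). Endog passed in 0 to 3 classes in the other settings but 4. It passed in 12 classes without a filter on low counts, where 1.26% of all tests did, and in 11 without the first library labelled Fosl2cKO, which leaves 1 library in that group and where 1.05% did. With replicate 1 of each group paired with replicate 2 of the other as a block it passed in 10, where 1.29% did, and with DESeq2 in 5, where 0.281% did. The caspase genes passed in 0 of 166 tests with edgeR, of which 5 had an unadjusted p under 0.05, where 5.69% of all tests did, and in 1 of 218 with DESeq2, Casp12 in luteal-like cells (-3.18). Without a filter on low counts 2 passed, Casp12 in luteal-like (-3.17) and Casp4 in lymphatic endothelial-like cells (1.97). With 1 library left out, which leaves 1 library in a group, single differences of Casp4, Casp6 and Casp12 were large. Without the second Fosl2F/F library, Casp4 was at 2.39 in lymphatic endothelial-like and Casp6 at -1.26 in macrophage-like cells. Without the second library labelled Fosl2cKO, Casp12 was at 2.06 in theca-like cells. In macrophage-like cells the sign of Casp4 turned with the library, at -0.99 without the first and 1.01 without the second Fosl2F/F library.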

How the data were processed

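Ovaries of 8-week-old mice were profiled in 4 libraries. The authors mapped reads to GRCm38 by CellRanger and deposited UMI counts per gene for barcodes with 500 UMIs or more. CellBender is described, and the sources used here do not state whether its correction is in these counts. The matrix headers name another CellRanger version than the methods. All columns belonged to a sample, with 0 left out. The 9 genes and the lists were chosen with earlier results of these data known.

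The cell filters of the methods were applied (500 genes or more, more than 1000 UMIs, mitochondrial UMIs below 10% and hemoglobin UMIs below 0.1%). DoubletFinder was not used. The highest Scrublet scores (scanpy 1.11.5) were removed at 0.8% per 1000 cells, 412 to 4723 cells per library. After SCTransform (sctransform 0.4.2) and integration in Seurat 5.3.0 on 3000 features and 30 dimensions, cells were clustered at a resolution of 0.8, and GC-like cells at 0.5. A cluster was named where its marker score was at least 0.2, led by 0.1 and rested on 3 markers, unless its 10 leading genes held more markers of another class or, in GC-like cells, no more of its own than of another.

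UMIs were summed per class and library, with at least 20 cells in each. The quasi-likelihood test of edgeR 4.0.16 used TMM and filterByExpr, with Benjamini-Hochberg adjustment over all genes. The threshold was 0.1 for the adjusted p, combined with 0.25 for the absolute log2 fold change. The limit of detection given for sparse counts covers counting error only. The SEs of the fits and the SDs include the spread between libraries, and 2 libraries per group set their precision. In simulated data with 200 genes changed 2-fold, the test found 46 with 4 false calls between conditions in atretic-like cells (13208 genes), and 175 with 13 false calls between atretic-like and mural-like cells (13204 genes). The changed genes were drawn from well-counted genes, with the same fixed spread for all genes and no library effects. These figures therefore do not describe sparse genes such as Pmaip1, or genes with another spread.

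The 9 genes are named in each comparison between states, and between conditions in atretic-like and mural-like cells, where they could be tested. Of the 52 other list genes, all that passed were counted and the 3 largest in each direction named, and for each of the 9 the 1 gene nearest in profile was named, among genes with at least 20 CPM in 1 class and on log2(CPM + 1). Alternatives were DESeq2 1.42.0, RLE scaling, no filter on low counts, over 2000 UMIs, under 5% mitochondrial UMIs, removal of 2 times the doublet share, a threshold of 0.05 with any fold, no library block, clusters at 0.3 and 0.8, each library left out, and the replicate number as a block.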

Additional observations from a re-analysis of the deposited data

How the results depend on the processing

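Between conditions 0 tests passed in the 25 classes and GC-like cells together, and 2 without a filter on low counts, 1 with DESeq2 and 0 to 3 with 1 library left out. With the replicate number as a block 0 passed. The pairing check gave correlations of same-numbered libraries of -0.15 in GC-like, -0.19 in atretic-like, -0.22 in mural-like and -0.07 in stromal-like cells. Each value rests on the difference between the replicates within each group, so it cannot show whether same-numbered libraries share more than a number. With 2 libraries a group the crossed pairing has these correlations with the opposite sign, 0.15, 0.19, 0.22 and 0.07, and as a block, added after seeing the data, it gave 1 call. Between the states 15 of 40 tests passed, 9 without the library block, 6 of 24 with clusters at a resolution of 0.8, which named no cumulus-like or growing follicle-like cells, and 11 to 14 with 1 library left out. The shares of all genes given above for these contrasts are those of the main fit only. Of the 15 calls 7 were kept in every setting. The interaction passed 0 of the 8 or 9 genes tested in each setting tried.

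Of the log2 differences that changed sign, those between states were near 0 and those between conditions ran from -0.62 (Bax in macrophage-like cells) to 0.41 (Bbc3 in mural-like cells) over the 25 classes. The values that follow are for GC-like, atretic-like and mural-like cells. In atretic-like against mural-like cells Bax was -0.11 with clusters at 0.3, and Bcl2 was -0.012 with more doublets removed and -0.0047 without the library block. Against cumulus-like cells Xiap was 0.022 under 5% mitochondrial UMIs. With 1 library left out, the values ran, against mural-like cells, from -0.0099 to 0.20 for Bax and from -0.15 to 0.18 for Bcl2, against glycolytic antral-like cells from -0.19 to 0.14 for Bcl2l1 and against cumulus-like cells from -0.076 to 0.058 for Xiap. Between conditions they ran in GC-like cells from -0.59 to 0.17 for Bak1, -0.45 to 0.019 for Bax, -0.56 to 0.41 for Bcl2, -0.55 to 0.19 for Bcl2l1 and -0.18 to 0.14 for Bcl2l11. In atretic-like cells they ran from -0.35 to 0.035 for Bcl2, -0.93 to 0.11 for Bcl2l1 and -0.10 to 0.43 for Xiap. In mural-like cells they ran from -0.30 to 1.04 for Bbc3, -0.63 to 0.0040 for Bcl2, -1.01 to 0.59 for Bcl2l1, -0.48 to 0.51 for Bcl2l11, -0.059 to 0.32 for Mcl1 and -0.066 to 0.16 for Xiap. The cause was not tested. With the cell filters varied, added after seeing the data for these values, the Bax to Bcl2 ratio moved by less than 1 SD. Sparse counts limit Bbc3, Pmaip1, Bmf and Casp12 in GCs.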

Other observations

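Barcodes that failed only the limit on mitochondrial UMIs entered no class. They numbered 1268, 836, 825 and 1081 (Fosl2F/F replicates 1 and 2, then Fosl2cKO replicates 1 and 2). Since the limit selects on mitochondrial UMIs, which lowers the CPM of all other genes, levels were taken per 1000000 UMIs of the other genes, a choice made after seeing the data. On this scale Bax was 131, 126, 66.1 and 83.5 in these barcodes and 211, 176, 152 and 160.0 in the cells kept. Bax, Bak1 and Pmaip1 were lower in the removed barcodes of all 4 libraries, the last from 8 to 16 UMIs per library, and Mcl1 in 3 of 4. Bcl2l1, Bcl2l11, Bbc3 and Xiap were higher there in 4 of 4 libraries and Bcl2 in 3 of 4. Bbc3 had 13 to 33 UMIs per library in the removed barcodes. It was 9.79 against 6.20 and 9.17 against 6.71 in the cells kept for Fosl2F/F, but nearly equal for Fosl2cKO, at 12.49 against 12.27 and 13.13 against 13.05. Per all UMIs, Bax, Bak1, Mcl1 and Pmaip1 were higher in 0 of 4, Bcl2 and Bbc3 in 2 of 4 and the others in 3 of 4. The removed barcodes were not divided into classes, so these values mix cell types.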
